A study of Mus musculus with 21 samples.

Results

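The description covers 9 genes of hepatic glucose production, glycogen turnover and amino acid transamination in the livers of mice given an antisense oligonucleotide against microRNA-122. The genes are Pck1, G6pc, Fbp1, Gys2, Pygl, Got1, Gpt, Tat and Ppargc1a, taken by their single symbol in the platform annotation. They were 9 of 18193 genes measured and were covered by 16 of 45101 probe sets, with 3 probe sets for Pck1, 2 for Gpt, 5 for Ppargc1a and 1 for each of the others. Female NMRI mice, an outbred stock, received the LNA-antimiR SPC3372 at 25 mg/kg or saline on day 2. Livers were taken on day 3, day 9 or day 23 from 3 treated and 3 saline mice each, 18 mice in all. The labels name no transgene or deletion, and the control groups received saline alone, with no control oligonucleotide among the groups analysed here. No source used here gives the age of the mice, their feeding state or the hour of killing.

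The liver makes glucose from lactate, glycerol and amino acids when food is withheld. Pck1 encodes the cytosolic phosphoenolpyruvate carboxykinase that commits oxaloacetate to this route, Fbp1 encodes fructose-bisphosphatase, and G6pc encodes the catalytic subunit of the glucose-6-phosphatase that releases free glucose. Glycogen is built by the liver glycogen synthase Gys2 and broken down by the liver phosphorylase Pygl. The transaminases Got1 (cytosolic aspartate aminotransferase), Gpt (alanine aminotransferase) and Tat (tyrosine aminotransferase) move amino groups off amino acids and so feed their carbon into the pathway. Glucagon, acting through cyclic AMP, and glucocorticoids raise several of these genes, and the coactivator Ppargc1a takes part in that response, whereas insulin lowers Pck1 and G6pc.

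The promoters of Pck1 and Got1 are printed because these genes carried the differences between treated and saline mice that passed the test at day 9. The sequences are from RefSeq on build GRCm38.p6 and run from 250 bases before to 50 bases after the annotated start, 5′ to 3′ on the strand of the gene. That table held 7 of the 9 members, all but Gys2 and Gpt. Pck1 lies at chr2:173152823-173153122 on the plus strand and Got1 at chr19:43524556-43524855 on the minus strand. Capitals mark CGTCA, the core of the cyclic AMP response element.
Pck1: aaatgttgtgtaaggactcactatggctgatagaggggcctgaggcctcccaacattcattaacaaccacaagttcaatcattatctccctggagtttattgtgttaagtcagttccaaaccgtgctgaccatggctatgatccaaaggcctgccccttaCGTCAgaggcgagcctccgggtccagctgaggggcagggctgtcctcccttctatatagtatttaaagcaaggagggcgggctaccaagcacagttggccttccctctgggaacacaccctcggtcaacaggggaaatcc
Got1: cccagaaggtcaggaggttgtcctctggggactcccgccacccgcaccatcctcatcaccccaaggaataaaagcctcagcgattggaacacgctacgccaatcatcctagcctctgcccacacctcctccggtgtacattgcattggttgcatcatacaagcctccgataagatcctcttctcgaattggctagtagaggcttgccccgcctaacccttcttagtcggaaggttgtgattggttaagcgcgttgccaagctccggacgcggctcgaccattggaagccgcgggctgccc
On either strand, CGTCA was found in the windows of Pck1, Pygl and Ppargc1a and not in those of G6pc, Fbp1, Got1 and Tat, against 20.8% of all 32851 promoters in the table. In Pck1 its leftmost base lay at position -90 from the start. TGTTCT, the core of a glucocorticoid response element, and CACGTG, the E-box read by clock proteins, were in none of the 7 windows, against 19.0% and 7.15% of all promoters, and no hits of the 3 motifs overlapped. A match is a description of letters and not a measured binding site.

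Values are log2 expression values from RMA, the Affymetrix summary of probe intensities, so a difference of 1 is a doubling. Array medians lay between 4.75 and 4.82 over 21 arrays, and the number of arrays limits the precision. All main probe sets of the 9 members were above the median level of 4.78. All 8 hepatocyte markers, including Alb and Hnf4a, were above it too. The set p0617 holds the arrays of days 3 and 9 and a second array of each treated mouse of day 23, and the set p0621 holds the arrays of both groups of day 23. Each comparison of treated with saline mice lies within 1 set, while for saline mice day 23 and the set p0621 cannot be told apart. The labels call the mice of a group biological replicates. In bulk liver RNA, fewer cells of a type and less RNA per cell cannot be told apart.

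At day 3, Pck1 was higher and Gys2 lower in treated mice, so 2 of 9 members passed the test (1 higher, 1 lower), where 4.51% of all genes did (2.63% higher and 1.88% lower). At day 9, Pck1 was again higher and Got1 was lower by 2.36-fold, again 2 of 9 members (1 higher, 1 lower), where 2.81% of all genes passed (1.91% higher and 0.896% lower). Of the genes called at day 9, 68.1% were higher, against 56.3% after quantile normalization of the arrays and 75.7% after median centring. At day 23 no member passed, where 0.385% of all genes did (0.187% higher and 0.198% lower). By limma, 0 of the 9 members reached even an unadjusted p under 0.05 at day 23, where 13.9% of all genes did. With 9 genes chosen for their function, these shares describe the genes and do not set them apart from the rest. The median difference over the 9 members was -0.09, 0.07 and 0.02 at days 3, 9 and 23, against 0.012, -0.020 and -0.020 over all genes.

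**Figure D1:**
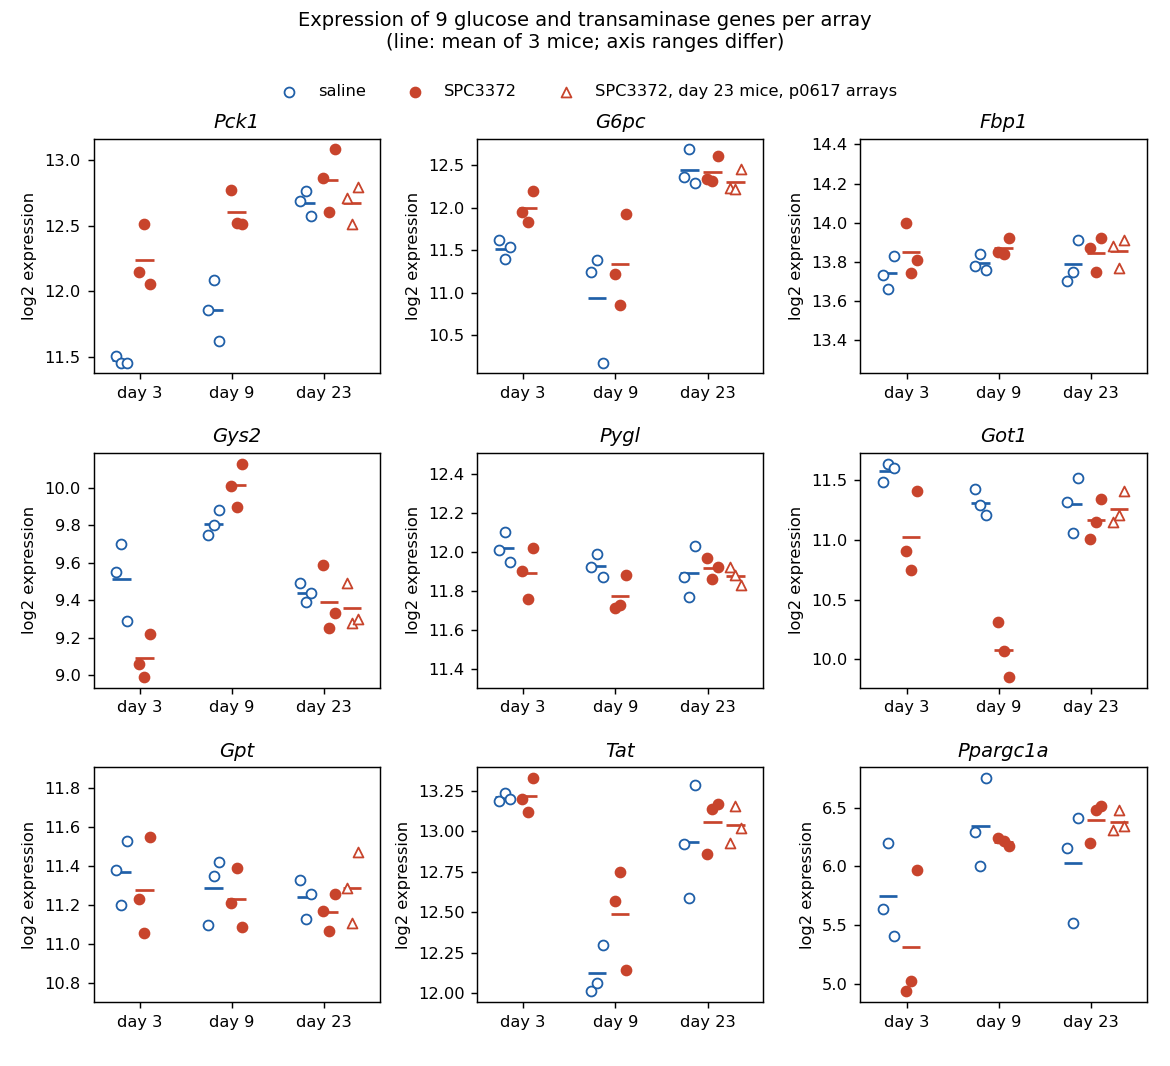
Log2 expression of the 9 genes in each of 18 mice (1 panel per gene, each with its own vertical range), by day and treatment, with lines at group means and triangles for the p0617 arrays of the treated mice of day 23. Pck1 in treated mice lies above saline at days 3 and 9, Got1 in treated mice lies lowest at day 9 (9.85 to 10.31), and Tat in saline mice lies between 12.01 and 12.30 at day 9 against 13.19 to 13.24 at day 3.

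Pck1 was the only member to pass the test at both early days. In saline mice of day 3 its log2 levels were 11.51, 11.46 and 11.46, and in treated mice they were 12.15, 12.51 and 12.06. Every treated mouse therefore lay above every saline mouse. The difference was 0.76 (SE 0.14), or 1.70-fold, with an adjusted p of 0.00408 by limma with Benjamini-Hochberg adjustment over all genes. At day 9 the saline levels were 11.86, 12.09 and 11.62 and the treated levels 12.77, 12.52 and 12.51, again without overlap. That difference was 0.74 (SE 0.14), or 1.68-fold, with an adjusted p of 0.0101, and 0.66 (adjusted p = 0.0514) without treated replicate 1. At day 23 the saline levels were 12.69, 12.76 and 12.57 and the treated levels 12.86, 12.60 and 13.08. The groups overlapped at day 23, and the difference of 0.17 had an interval (95%) from -0.12 to 0.47.

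On p0621 arrays, saline mice of day 23 lay within the range of treated mice of day 9 on p0617 arrays (12.51 to 12.77), and all of them lay above the saline mice of days 3 and 9. No test was made across the array sets. The 3 treated mice of day 23, on arrays of both sets, give a measure of the set in treated livers. Their Pck1 level was 12.67 ± 0.14 (SD, n = 3) on p0617 arrays and 12.85 ± 0.24 (SD, n = 3) on p0621 arrays. Mouse by mouse the p0621 value was higher by 0.15, 0.09 and 0.30. No saline mouse of day 23 had a p0617 array, so day and set cannot be told apart for their level.

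The other probe sets of Pck1 did not all behave alike. A second bright one, 1439617_s_at, differed by 0.80 at day 3 (SE 0.24, adjusted p = 0.111 over every probe set), with treated levels of 10.01, 11.11 and 10.33 above saline levels of 9.85, 9.33 and 9.88. At day 9 it differed by 1.05 (SE 0.24), which passed with an adjusted p of 0.04. A dim probe set, 1455209_at, was at 4.60, 4.94 and 4.85 in treated and at 4.95, 5.45 and 5.40 in saline mice of day 3. That difference of -0.47 (SE 0.19, adjusted p = 0.263) has the opposite sign and did not pass. With the mean of the 3 probe sets, Pck1 differed by 0.36 at day 3 (adjusted p = 0.196) and by 0.52 at day 9 (adjusted p = 0.0753), and neither call was kept.

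G6pc and Fbp1, the enzymes of the later steps, passed in no comparison. G6pc at day 3 was at 11.62, 11.40 and 11.54 in saline and at 11.95, 11.83 and 12.20 in treated mice, which did not overlap. The difference of 0.48 (SE 0.27) had an adjusted p of 0.374. At day 9 G6pc spread widely, from 10.18 to 11.39 in saline and from 10.86 to 11.93 in treated mice, and the groups overlapped. The 6 group means of Fbp1 lay between 13.74 and 13.87, the closest together of the 9 genes, with differences of 0.11, 0.07 and 0.06 at days 3, 9 and 23.

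Gys2, the glycogen synthase of liver, was lower at day 3 and not at day 9. Its day 3 levels were 9.55, 9.70 and 9.29 in saline and 9.06, 8.99 and 9.22 in treated mice, with every treated mouse below every saline mouse. It fell by 0.42 on the log2 scale (SE 0.11), a 1.34-fold difference with an adjusted p of 0.037. At day 9 the levels were 9.75, 9.80 and 9.88 in saline and 10.01, 9.90 and 10.13 in treated mice, so the groups did not overlap but treated mice lay higher, by 0.20 (adjusted p = 0.374). The change of the effect from day 3 to day 9, 0.63, did not pass over all genes (adjusted p = 0.137). The day 3 call was lost in 9 of 16 other settings, with adjusted p from 0.0125 to 1, among them 4 that leave out a single mouse: 0.124 and 0.122 without treated replicate 1 or 2, and 0.108 and 0.167 without saline replicate 1 or 2.

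Pygl, which breaks glycogen down, differed by -0.13, -0.15 and 0.02 at days 3, 9 and 23, and none passed. Its levels lay between 11.71 and 12.10 in all 18 mice.

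Got1 showed the widest drug difference of the 9 genes. At day 9 its levels were 11.43, 11.29 and 11.21 in saline and 10.31, 10.07 and 9.85 in treated mice. Every treated mouse lay below every mouse of the other 5 groups. It fell by 1.24 on the log2 scale (SE 0.16), a 2.36-fold difference with an adjusted p of 0.000603. At day 3 the saline levels were 11.49, 11.64 and 11.60 and the treated levels 10.91, 10.75 and 11.41. The groups did not overlap, but 1 treated mouse, at 11.41, lay close to the saline mice, and the difference of -0.56 (SE 0.16) had an adjusted p of 0.0528. Without treated replicate 3, the difference at day 3 was -0.75 with an adjusted p of 0.00673. Over the 16 other settings the adjusted p at day 3 ran from 0.00673 to 1. At day 23 the saline levels were 11.32, 11.06 and 11.52 and the treated levels 11.01, 11.15 and 11.34, which overlapped. The difference of -0.13 had an interval (95%) from -0.46 to 0.20.

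The other aminotransferases did not follow Got1. Gpt lay between 11.06 and 11.55 in all 18 mice and differed by -0.09, -0.07 and -0.07 at days 3, 9 and 23, and its dimmer probe set by -0.15, -0.11 and -0.03. Tat differed by 0.01 at day 3, by 0.36 at day 9 (adjusted p = 0.263) and by 0.12 at day 23. At day 9 Tat was at 12.01, 12.06 and 12.30 in saline and at 12.57, 12.75 and 12.14 in treated mice, so that 1 treated mouse lay among the saline mice.

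**Figure D2:**
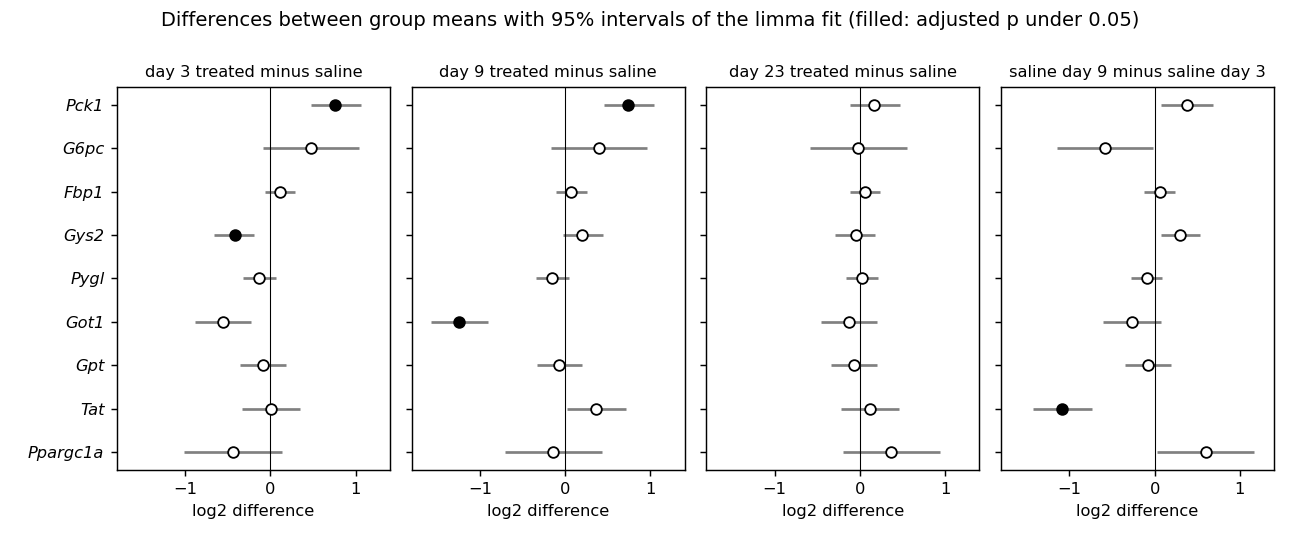
Difference of treated minus saline mice on the log2 scale for the 9 genes at days 3, 9 and 23, and of saline day 9 minus saline day 3, as points with 95% intervals from the fit. Pck1 lies at 0.76 and 0.74 at days 3 and 9, Got1 reaches -1.24 at day 9, and at day 23 the 9 points lie between -0.13 and 0.37.

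Ppargc1a was the dimmest member, with levels from 4.94 to 6.75, and RMA shrinks differences of dim probe sets. On its main probe set it differed by -0.44 (SE 0.27, adjusted p = 0.427) at day 3, by -0.14 at day 9 and by 0.37 at day 23. All 5 of its probe sets lay lower in treated mice at day 3, and 1 of them passed. That probe set, 1434099_at, was at 5.07, 5.54 and 5.08 in saline and at 3.83, 3.94 and 4.99 in treated mice, a fall of 0.98 (SE 0.23, adjusted p = 0.0283 over every probe set). At days 9 and 23 the 5 probe sets ran from -0.57 to 0.92 and from -0.04 to 1.56, and none passed. The value of 1.56 (SE 0.47, adjusted p = 0.185) came from 1460336_at, with saline levels of 4.81, 4.82 and 4.94 and treated levels of 4.81, 7.03 and 7.40. The first of these treated mice read 6.44 on its p0617 array, so its 2 arrays disagreed for that probe set.

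**Figure D3:**
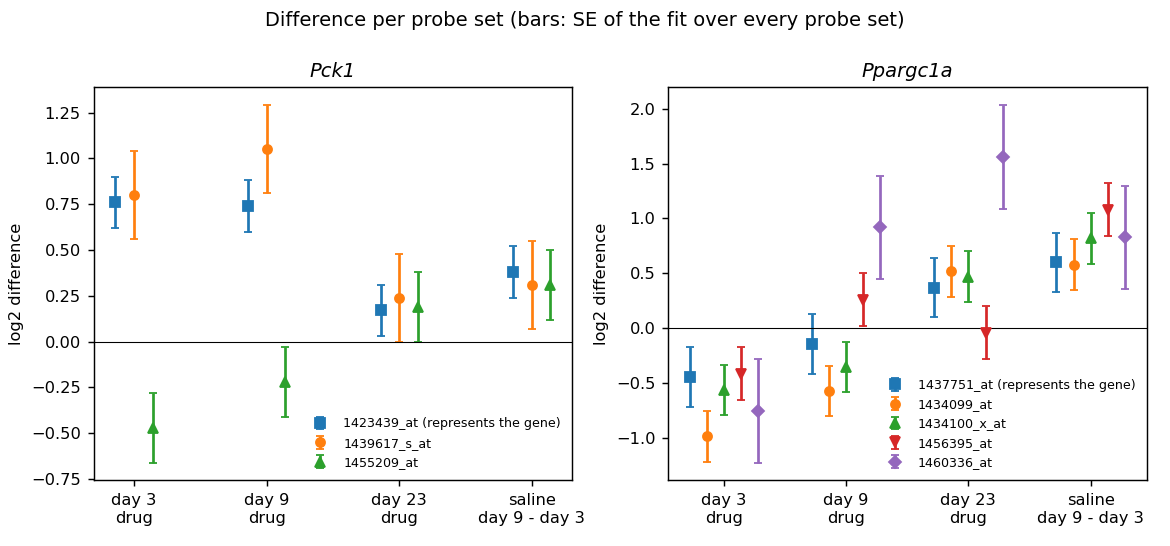
Log2 differences of treated minus saline mice at days 3, 9 and 23, and of saline day 9 minus saline day 3, for each probe set of Pck1 and Ppargc1a, with bars for the SE of the fit over every probe set. The bright Pck1 probe sets lie above 0 at days 3 and 9 while the dim one lies below, and the 5 Ppargc1a probe sets lie below 0 at day 3, on both sides of 0 at day 9 and above 0 between the saline groups.

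The pattern over days was tested as the change of the drug effect between days. The 3 tests were day 9 against day 3, day 23 against day 3 and day 23 against day 9. None of the 9 members passed any of them by limma, where 0.143%, 0.302% and 0.0055% of all genes passed. An unadjusted p under 0.05 was reached by 2, 3 and 2 members, where 11.6%, 10.3% and 8.69% of all genes reached it. For Got1 the effect at day 23 differed from that at day 9 by 1.11 (SE 0.22, adjusted p = 0.233 by limma) and that at day 9 from that at day 3 by -0.68 (adjusted p = 0.237). For Pck1 the effect at day 23 differed from that at day 3 by -0.59 (adjusted p = 0.294) and from that at day 9 by -0.57 (adjusted p = 0.423). A loss of the Pck1 or Got1 difference by day 23 was therefore not established over all genes. Averaged over the 3 days, Pck1 was higher by 0.56 (SE 0.08, adjusted p = 0.000304) and Got1 lower, by -0.64 (SE 0.09, adjusted p = 0.000245), where 11.6% of all genes passed.

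A measure of RNA quality moved with treatment at the early days. The log2 ratio of the 3′ to the 5′ beta-actin control probe sets was 1.03 ± 0.02 (SD, n = 3) in treated and 0.80 ± 0.05 (SD, n = 3) in saline mice of day 3. At day 9 it was 1.14 ± 0.02 (SD, n = 3) against 0.93 ± 0.06 (SD, n = 3), and the groups did not overlap on either day. At day 23 it was 1.15 ± 0.16 (SD, n = 3) against 1.16 ± 0.04 (SD, n = 3). The ratio also differed between the saline mice of day 3 (0.76 to 0.85) and day 9 (0.86 to 0.98), without overlap. With this ratio as a covariate, Pck1 differed by 0.86 at day 3 (adjusted p = 0.0774) and by 0.84 at day 9 (adjusted p = 0.107), and Got1 by -1.08 at day 9 (adjusted p = 0.0684). These calls were lost, while Gys2 at day 3 kept its call with a difference of -0.70 (adjusted p = 0.0316). Got1 averaged over the 3 days then differed by -0.54 (adjusted p = 0.0536). Over all 16 other settings the adjusted p ran from 0.00245 to 0.196 for Pck1 at day 3, from 0.00604 to 0.302 for Pck1 at day 9 and from 0.000502 to 0.0684 for Got1 at day 9. At days 3 and 9 the ratio moved with the drug, so the fit with this covariate separates them poorly. A lost call therefore does not assign a difference to RNA quality. The part of RNA quality in these differences was not tested further.

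Markers of other liver cells moved at day 3 as well. Of all genes, 2.63% were higher at day 3 and 1.91% at day 9, and 18.3% and 16.8% reached an unadjusted p under 0.05. Of 14 Kupffer cell and macrophage markers, all above the median level, 8 were higher in treated mice at day 3, with a median difference of 0.82. The log2 of their summed level ran from 13.52 to 14.09 in treated and from 12.58 to 13.53 in saline mice. At day 9, where Got1 differed most, 0 of the 14 passed by limma (5 at an unadjusted p under 0.05) and the sums ran from 13.07 to 13.24 against 12.87 to 13.26. Of 11 lymphocyte markers, 8 of which were above the median level, 3 were higher at day 3, with sums of 9.25 to 9.54 against 8.51 to 8.72. At day 9, 2 of 9 stellate cell markers (Reln and Dcn) and 1 of 8 sinusoidal endothelium markers (Clec4g, also at day 3) were higher. The sum of the 8 hepatocyte markers was 17.03 to 17.06 in treated and 17.00 to 17.08 in saline mice of day 3, where 0 of 8 passed by limma (0 at an unadjusted p under 0.05). At day 9 it was 17.08 to 17.13 against 17.02 to 17.09, and 1 of the 8, Apob, was higher by 0.98 (adjusted p = 0.00716). Of 5 cholangiocyte markers, 1, Epcam, was higher at day 3, by 0.32 (adjusted p = 0.0364). The part of the other cells in the Pck1, Gys2 and Got1 differences was not tested.

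Saline mice of day 9 and day 3 were compared as the change without drug within 1 array set. The beta-actin ratio given above also differed between these groups, and its part in their differences was not tested further. Of the 9 members, 1 passed, Tat, and it was lower at day 9, where 5.88% of all genes passed (2.76% higher and 3.12% lower). Its levels were 13.19, 13.24 and 13.20 at day 3 and 12.01, 12.06 and 12.30 at day 9. It fell by 1.09 (SE 0.16), a 2.12-fold difference with an adjusted p of 0.000536, and it passed in all 16 other settings, with adjusted p from 0.000471 to 0.00873. The difference between the saline groups was thus wider for Tat than any drug difference of that gene. Treated mice of day 9, at 12.49 ± 0.31 (SD, n = 3), also lay below treated mice of day 3, at 13.21 ± 0.10 (SD, n = 3).

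The other members moved less between the saline groups. The differences were 0.38 for Pck1 (adjusted p = 0.141), 0.30 for Gys2 (adjusted p = 0.143), -0.58 for G6pc (adjusted p = 0.263) and -0.27 for Got1 (adjusted p = 0.42). For Ppargc1a the main probe set differed by 0.60 (adjusted p = 0.247), all 5 probe sets lay higher at day 9, and 1456395_at passed at 1.08 (SE 0.24, adjusted p = 0.0162 over every probe set). With the mean of its probe sets, Ppargc1a passed as a gene at 0.78 (adjusted p = 0.0447). Including Tat, 5 of 9 members did not overlap between the saline groups, where 21.8% of all genes did not. For the drug, 4 of 9 did not overlap at day 3 (21.5% of all genes), 3 of 9 at day 9 (21.6%) and 0 of 9 at day 23 (19.2%).

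Clock genes differed strongly between the same saline groups. Of 18 genes of the circadian clock, 5 were higher and 6 lower at day 9, with a list median of -0.02. Dbp, a clock output factor, differed by 5.21 (adjusted p = 1.44e-06), the nuclear receptor Nr1d2 (REV-ERB beta) by 3.20 (adjusted p = 1.7e-06) and the repressor Cry1 by -2.81 (adjusted p = 1.44e-06). Glucocorticoid receptor targets other than Tat split, with 3 of 17 higher and 3 lower: Mt2, a metallothionein, rose by 3.16 (adjusted p = 0.00123) and the cell cycle inhibitor Cdkn1a fell by 2.09 (adjusted p = 0.000368). Within day 9, 2 of the 18 clock genes passed for the drug, with a list median of 0.20: treated mice differed from saline mice in the clock activator Arntl by -1.25 (adjusted p = 0.00154) and in the clock repressor Per2 by 1.04 (adjusted p = 0.0493). At day 3, 1 clock gene was higher (list median -0.06). At day 23, 0 passed by limma (2 at an unadjusted p under 0.05, list median 0.05). No source gives the hour of killing, and the part of clock phase in the Tat and Got1 differences was not tested.

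The rest of the pathway was read from 8 lists with 199 measured genes that are no members. By limma, 16 of them passed at day 3, 14 at day 9, 0 at day 23 and 31 between the saline groups, where 4.51%, 2.81%, 0.385% and 5.88% of all genes did. An unadjusted p under 0.05 was reached by 25.1%, 29.1%, 16.1% and 28.6% of them, against 18.3%, 16.8%, 13.9% and 18% of all genes. The genes share mice and were chosen by function, so these shares are a description. The median over all genes was 0.012, -0.020 and -0.020 for the drug at days 3, 9 and 23 and 0.013 between the saline groups. Of 25 other genes of gluconeogenesis and pyruvate handling, 2 were higher at day 3 (median of the list -0.11), 1 higher and 1 lower at day 9 (-0.06), 0 at day 23 (-0.09), and 1 higher and 1 lower between the saline groups (0.01). Aqp9, the glycerol channel of hepatocytes, rose in 3 of the 4 comparisons: by 0.41 at day 3 (adjusted p = 0.00821), by 0.34 at day 9 (adjusted p = 0.0343) and by 0.54 from saline day 3 to saline day 9 (adjusted p = 0.000706). G6pc3, the widely expressed relative of G6pc, rose by 0.46 at day 3 (adjusted p = 0.00846), a day at which G6pc itself did not pass. The pyruvate dehydrogenase kinase Pdk1 fell by 1.23 at day 9 (adjusted p = 0.0045), and its relative Pdk4 fell by 1.82 between the saline groups (adjusted p = 0.000483).

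Of 21 genes of glycolysis and glucose uptake, 3 were higher and 1 lower at day 3, 1 was higher at day 9, and none passed at day 23 or between the saline groups (2 and 1 at an unadjusted p under 0.05 by limma). The list's medians were 0.00, -0.05, -0.03 and -0.04. Aldoa, an aldolase, was the steadiest: it rose by 0.82 at day 3 (adjusted p = 2.29e-05) and by 0.77 at day 9 (adjusted p = 0.000133). The hexokinase Hk3 rose by 0.67 (adjusted p = 0.0293) and the phosphofructokinase Pfkp by 0.44 (adjusted p = 0.0308) at day 3. The remaining gene, the liver phosphofructokinase Pfkl, fell by 0.39 (adjusted p = 0.0456) and is named after its value was seen. Hk3 is found mainly in blood cells, and the macrophage markers given above were higher in the same mice, whose part in it was not tested.

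Of 25 other genes of glycogen metabolism, 2 were higher at day 3, 2 higher at day 9, 0 passed at day 23, and 1 was higher and 2 lower between the saline groups, with medians of 0.04, 0.01, -0.02 and -0.03. Ppp1r3c, a subunit that brings protein phosphatase to glycogen and so promotes its synthesis, rose by 0.63 at day 3 (adjusted p = 0.0368) and by 0.90 at day 9 (adjusted p = 0.00907). At day 3 this stood opposite to Gys2, which was lower. Gyg, the primer of new glycogen, rose by 0.42 at day 3 (adjusted p = 0.0199), and Stbd1, which binds glycogen to membranes, rose by 0.99 at day 9 (adjusted p = 0.0133). Between the saline groups Ppp1r3c fell by 1.34 (adjusted p = 0.000119) and its relative Ppp1r3b fell by 1.63 (adjusted p = 0.000122), while Ugp2, which makes UDP-glucose, rose by 0.40 (adjusted p = 0.0233).

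Of 18 other transaminase and amidotransferase genes, 1 was lower at day 3, 1 higher at day 9, 0 passed at day 23 and 1 was lower between the saline groups, with medians of 0.05, 0.04, 0.02 and 0.06. Aadat, which acts on aminoadipate and kynurenine, fell by 0.49 at day 3 (adjusted p = 0.0162). Gfpt1, the entry enzyme of hexosamine synthesis, rose by 0.59 at day 9 (adjusted p = 0.045) and fell by 1.07 between the saline groups (adjusted p = 0.000355). Of 36 genes of amino acid breakdown, 2 were lower at day 3, 2 higher and 1 lower at day 9, and 1 higher between the saline groups, with 0 at day 23 and medians of -0.04, -0.09, 0.06 and 0.05. Ftcd of histidine breakdown fell by 0.39 (adjusted p = 0.00583) and Prodh2 of hydroxyproline breakdown by 0.38 (adjusted p = 0.0459) at day 3. At day 9 Glud1, the glutamate dehydrogenase, rose by 0.55 (adjusted p = 0.0045) and Prodh, the proline dehydrogenase, fell by 0.87 (adjusted p = 0.0389). Bckdha, a subunit of the branched-chain ketoacid dehydrogenase, rose by 0.39 at day 9 (adjusted p = 0.0239) and by 0.37 between the saline groups (adjusted p = 0.0173).

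**Figure D4:**
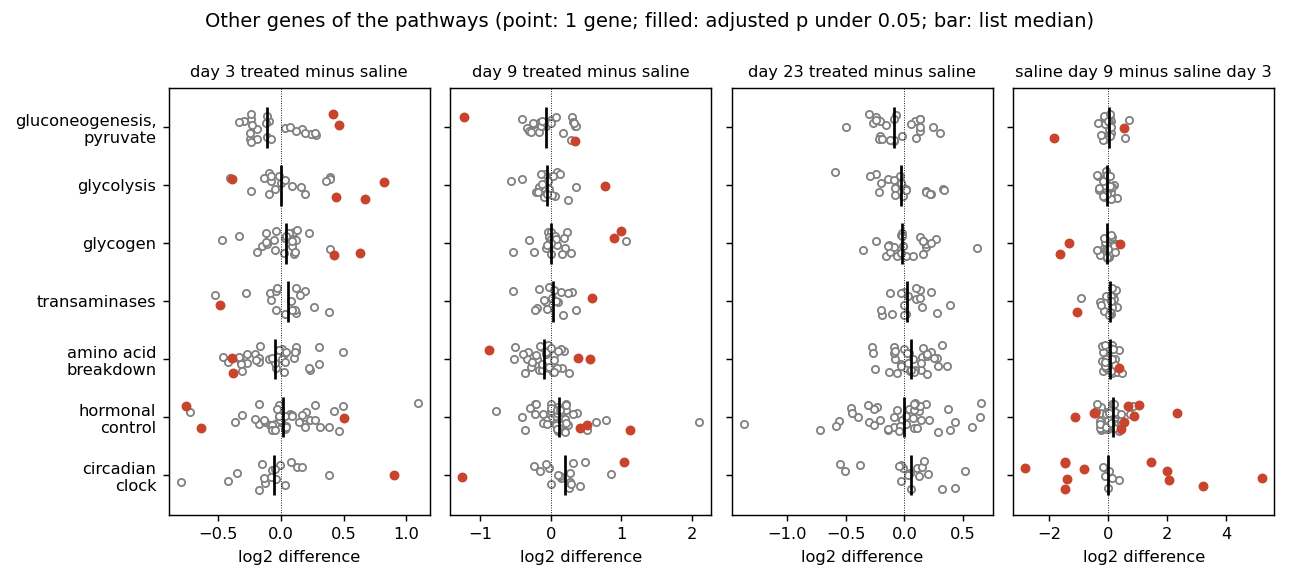
Log2 differences of every measured gene of 7 of the 8 lists (without the glucocorticoid receptor targets) in the 4 comparisons, 1 point per gene, filled where the adjusted p was under 0.05, with a bar at each list's median and a range of its own for each panel. Open points outnumber filled ones in each list and comparison except the circadian clock between the saline groups (11 of 18 filled), and at day 23 none of these genes passed.

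Of 44 genes of the hormonal and transcriptional control of gluconeogenesis, 1 was higher and 2 lower at day 3, 3 higher at day 9, 0 passed at day 23, and 6 were higher and 3 lower between the saline groups, with medians of 0.01, 0.11, -0.01 and 0.14. At day 3 Pde4b, a phosphodiesterase that breaks down cyclic AMP, fell by 0.76 (adjusted p = 0.0144), the pseudokinase Trib1 fell by 0.64 (adjusted p = 0.00322) and the forkhead factor Foxo3 rose by 0.50 (adjusted p = 0.00749). At day 9 the corepressor Nr0b2 rose by 1.12 (adjusted p = 0.0295), the retinoid X receptor Rxra by 0.52 (adjusted p = 0.0331) and the glucocorticoid receptor Nr3c1 by 0.41 (adjusted p = 0.0323). Between the saline groups Trib3 rose by 2.34 (adjusted p = 8.04e-05), Klf9 rose by 1.05 (adjusted p = 0.000179) and Nr0b2 fell by 1.12 (adjusted p = 0.0147). Of 17 glucocorticoid receptor targets, 1 passed for the drug (list medians 0.19, 0.26 and 0.14 at days 3, 9 and 23), Lcn2, an acute phase gene, which rose by 2.77 at day 3 (adjusted p = 0.00249). Since hepatocytes near the portal vein carry more of the gluconeogenic enzymes, zonal markers were counted too. By limma, 0 of 14 periportal markers passed in any of the 4 comparisons (3, 3, 1 and 3 at an unadjusted p under 0.05). Their medians were 0.00, -0.03, 0.00 and -0.03. Of 17 pericentral markers 3, 2, 0 and 2 were higher (7, 8, 4 and 6 at an unadjusted p under 0.05). Of all genes, 2.63%, 1.91%, 0.187% and 2.76% were higher, and 18.3%, 16.8%, 13.9% and 18% reached an unadjusted p under 0.05. The pericentral medians were 0.16, 0.14, 0.14 and 0.23.

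Genes with levels most like those of the members over the 18 mice were taken among 9095 genes above the median level, as a description of mice that share groups and array sets. Got1 was most like Tfpi2 (Pearson r = 0.944, Spearman rho = 0.924), an inhibitor of serine proteases. Gys2 was most like Nfix (r = 0.926, rho = 0.953), a nuclear factor, and Pck1 was most like Ist1 (r = 0.897, rho = 0.884), a gene of endosomal sorting. Tat was most like Tsc22d3 (r = 0.891, rho = 0.796), a glucocorticoid-induced gene, and next most like Palld (r = 0.884, rho = 0.886). From saline day 3 to saline day 9 Tsc22d3 differed by -1.17 and Palld by -1.45. Both were picked for their likeness to Tat in these same mice, so their fall is no separate result. Pygl was most like Pcyox1 (r = 0.865), G6pc like Gfod1 (r = 0.846), Gpt like Slc9a3r1 (r = 0.881), Ppargc1a like Sgk2 (r = 0.865) and Fbp1, with its close group means, like Ep300 (r = 0.710). Next most alike were Pm20d1 for Got1 (r = 0.919), Pex16 for Gys2 (r = 0.910) and Iigp1 for Pck1 (r = 0.882). For the others they were Car14 for Pygl (r = 0.819), App for G6pc (r = 0.844) and Slc25a10 for Gpt (r = 0.798). Ppargc1a had Gramd3 (r = 0.832) and Fbp1 had Trappc6b (r = 0.687).

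The repeat arrays show how far a second array of the same mouse, in the other set, differed. For the 3 treated mice of day 23, the p0621 and p0617 values of the main probe sets differed by at most 0.30 in size over 27 pairs of values, the widest being Pck1 in replicate 3. Got1 differed by -0.14, -0.07 and -0.07.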

How the data were processed

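Liver RNA of 18 mice was measured on 21 Affymetrix arrays; the 3 treated mice of day 23 have an array in each of 2 sets. The deposited values are log2 levels of probe sets that the authors computed with RMA, per the submitters' processing notes. No source used here gives its version or says whether both sets were normalized as 1. Mouse numbers recur between days and were taken as different animals.

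Each gene was read from the probe set of its own that was brightest on average over 18 arrays (p0621 for day 23). Group means of 6 groups were fitted with limma (lmFit, eBayes; 12 residual and 4.85 prior degrees of freedom), with Benjamini-Hochberg adjustment over 18193 genes and a threshold of 0.05, two-sided. Probe sets were also fitted all together. The steps were tested on simulated data. Pathway genes were named by a fixed rule: up to 3 per list and comparison, of those past the threshold whose groups do not overlap. Pfkl, the day 9 to day 3 changes of Tsc22d3 and Palld, and the single probe sets were named after their values were seen. The members and lists were chosen with earlier results of these data known. Sequences are from RefSeq (GRCm38.p6), used for no coordinates of the arrays. Other settings are given in the closing section. Fits were run in limma 3.58.1 under R 4.3.3, with data.table at version 1.17.8, and sequences and plots in Python 3.11.15 with pandas 2.3.3 and matplotlib 3.10.9.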

Additional observations from a re-analysis of the deposited data

How the results depend on the processing

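Over the 36 differences of the 9 members in the 3 drug comparisons and the saline comparison, 562 of 585 recomputed values kept their side of the threshold, 18 lost a call, 5 gained one and 0 called values reversed. Of 5 calls, 1 (Tat between the saline groups) held in every setting run. The settings were the comparison's own arrays, quantile normalization, median centring, genes above the median level, a gene's mean over its probe sets, a fit on every probe set, a robust prior with an intensity trend, a replicate block, the beta-actin 3′ to 5′ ratio as a covariate, a change of at least 1.2-fold, leaving out each mouse and, for day 23, the p0617 arrays.

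Members called at day 3 (2) numbered 1 with the own arrays, quantile normalization, the probe set mean, every probe set, the replicate block or the covariate, 0 at 1.2-fold, and 1 to 3 without single mice. At day 9 (2) they numbered 1 with the own arrays, the probe set mean or 1.2-fold, 0 with the covariate, and 1 to 2 without single mice. Between the saline groups (1) they numbered 2 with the probe set mean. At day 23 no setting called a member. Got1 at day 3 passed with median centring (adjusted p = 0.0455), genes above the median (0.0338), the intensity trend (0.0499) and without treated replicate 3. At 1.2-fold the adjusted p was 0.127 for Pck1 at day 3 and 0.302 at day 9, and with its own arrays 0.0535 at day 9. Averaged over the days it was 0.159 for Pck1 and 0.0652 for Got1 at 1.2-fold.

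Over all genes, the own arrays called 253 at day 3, 132 at day 9, 0 at day 23, 693 between the saline groups, 7 for day 9 against day 3 and 0 for day 23 against day 9. The covariate called 98 at day 3, 35 at day 9, 593 between the saline groups, 461 for the mean of the days, 5 for day 23 against day 3 and 0 for day 23 against day 9. At 1.2-fold the counts were 110 at day 3, 19 at day 9, 0 at day 23, 195 between the saline groups, 78 for the mean, and 6, 15 and 0 for day 9 against day 3, day 23 against day 3 and day 23 against day 9. At day 23, against 70 genes, quantile normalization called 140, genes above the median 340, every probe set 29, the trend 210, the replicate block 13 and the p0617 arrays 179. Every probe set called 15 for day 9 against day 3. For day 23 against day 9, median centring, genes above the median, the probe set mean, every probe set and the replicate block called 0. Leaving out single mice gave 435 to 876 genes at day 3, 176 to 390 at day 9, 3 to 72 at day 23, 608 to 902 between the saline groups, 1726 to 2192 for the mean, and 7 to 64, 24 to 106 and 0 to 4 for the changes of effect. The cause of these shifts was not tested.

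Treated and saline arrays of the same day and replicate number did not deviate together (correlations of -0.14 to 0.08, 0 of 9 pairs over 0.1). Replicate numbers were therefore not taken as pairs. The mouse numbers that recur between days were not tested in this way. The replicate block ended the Gys2 call at day 3 (adjusted p = 0.0556). Ppargc1a lies nearest to the background level, so its differences are uncertain. By the fit their SE at days 3, 9 and 23 was 0.27, the same as for G6pc.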
